A study of Mus musculus with 6 samples.

Results

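Cytochrome P450 enzymes are described here in brown adipose tissue (BAT) of mice with and without the cytoskeleton-associated protein KRAP. The family was taken by gene symbol, as Cyp followed by a number, letters and a number, and Cyp2e1 and Cyp51 were not counted in it. The array held 92 probe sets that name 1 gene of this kind, and they stood for 69 of the 18193 genes with such a probe set. Each gene was read from its probe set with the highest mean signal over the 6 arrays, and 51 of the 69 genes had a single probe set.

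Cytochrome P450 enzymes are haem proteins that insert 1 oxygen atom into sterols, fatty acids, vitamins and foreign compounds. Most sit in the endoplasmic reticulum and take electrons from a shared reductase, while a few, such as the enzyme encoded by Cyp27a1, work in mitochondria with ferredoxin as the donor. The liver is the main site of the families that clear drugs, whereas other members act in the adrenal gland, lung, brain and vessels. In fat tissue, members of the family oxidise arachidonic acid, cholesterol and steroid hormones.

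The animals formed 3 littermate pairs. Each joined 1 mouse deficient for KRAP (KO) with 1 wild-type mouse (WT), and all were aged 32 weeks and kept on normal chow. In KO mice a block of exons of the KRAP gene is replaced with a neomycin resistance cassette in every tissue, on a C57BL6/J background, and their sex is not known here. One Affymetrix array was hybridised for each animal, and the question was which P450 transcripts the tissue holds and whether they differ between the genotypes. Signals are given relative to the array median, so that 1 is the median itself, and the values of 3 animals are listed in the order of pairs 1 to 3. Probe sets differ in how strongly they bind their transcripts, so the order of signals between genes is an order of signals and not of RNA amounts.

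Median intensities of the 6 arrays ran from 16.5 to 20.4 units. KRAP is named by 1 probe set (symbol Itprid2), which had signals of 47.0, 35.1 and 41.4 for KO and 55.3, 56.6 and 42.2 for WT (log2 difference -0.32, limma adjusted p = 0.720, -0.13 without pair 2). It was lower in KO in each pair, but whether it lies inside the deleted exons is not known here, so it does not check the labels. The tissue label was borne out by markers of brown adipocytes, with Ucp1 between 343 and 655 and Cidea between 582 and 693. In Ppargc1a and Dio2, also listed as brown adipocyte markers, both arrays of pair 1 stood apart. Ppargc1a read 111.4 in KO 1 and 72.7 in WT 1, and 9.88 to 12.2 in the other arrays. Dio2 read 101.1 in KO 1 and 44.3 in WT 1, and 4.05 to 15.3 in the others. The part of this in the P450 values of pair 1 was not tested. KO 3, KO 2 and WT 2 stood apart from the other arrays in one respect each. KO 3 had a summed signal of 13 hepatocyte markers of 69.1, where the other arrays had 5.60 to 7.62. KO 2 had a summed signal of 6 skeletal muscle markers of 749.9, where the others had 84.9 to 336.0. WT 2 had an actin 3′ over 5′ signal ratio of 3.80, where the others had 1.91 to 2.58.

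Of the 69 P450 genes, 18 exceeded the array median on average, whereas 61.2% of all 18193 genes did. Cyp27a1, Cyp4v3 and Cyp4b1 had the highest signals, with means over the 6 arrays of 24.8, 23.4 and 22.99. Cyp2d22 followed at 13.7 and Cyp20a1 at 11.6. Cyp1b1, Cyp4f13, Cyp2b10, Cyp2j6, Cyp1a1, Cyp4f16, Cyp2u1 and Cyp2f2 lay between 6.06 and 2.01. The spread of the arrays overlapped between most neighbours in this order, and that of Cyp27a1, at 19.9 to 31.7, overlapped those of Cyp4v3, at 16.0 to 37.7, and of Cyp4b1, at 16.7 to 33.5. Cyp2c38 (1.47), Cyp2j9 (1.39), Cyp39a1 (1.27), Cyp4a31 (1.17) and Cyp46a1 (1.10) lay just above the median. Of the 18 genes, 15 were above the median in each of the 6 arrays, and the exceptions were Cyp39a1, Cyp4a31 and Cyp46a1. Just below the median were Cyp3a11 (0.988), Cyp2c50 (0.897) and Cyp4f39 (0.867).

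**Figure D1:**
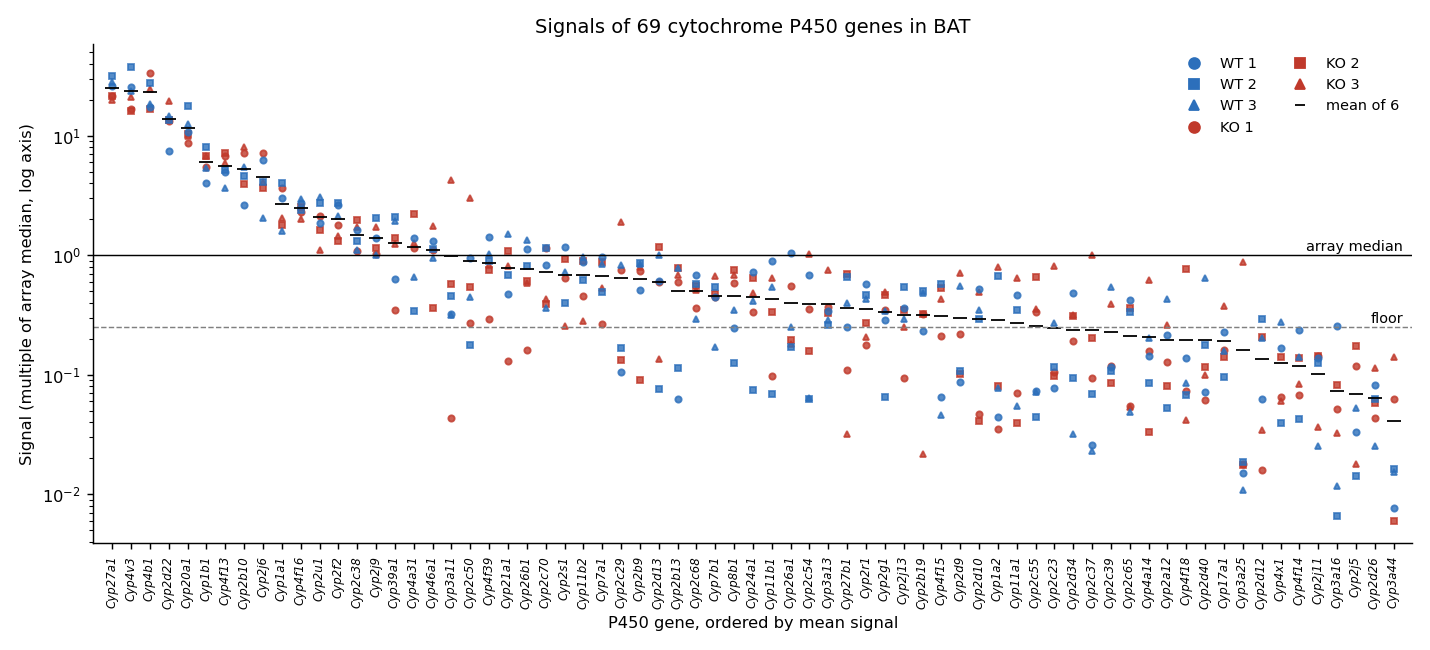
Signals of the 69 P450 genes in each of the 6 arrays, on a logarithmic axis in multiples of the array median. Circles, squares and triangles are pairs 1, 2 and 3, blue is WT, red is KO, and the short black line is the mean of the 6 arrays. The solid line marks the array median, which 18 genes exceed on average, and the dashed line marks the floor of 0.25 below which signals were treated as equal.

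By role, the members above the median were spread as follows. Of the 6 genes that hydroxylate cholesterol or bile acids, 3 were above it. Of the 11 fatty acid hydroxylases of family 4, 5 were above it. Of the 5 arachidonic acid epoxygenases of the Cyp2j subfamily, 2 were above it. Of the other 36 genes of families 1, 2 and 3, which oxidise drugs, hydrocarbons and steroids, 7 were above it. The 5 genes of steroid hormone synthesis, the 3 of vitamin D and the 2 of retinoic acid breakdown had 0 above it.

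Many P450 genes lie in clusters of relatives. In the RefSeq gene table of the GRCm38.p6 mouse assembly, 48 members had a P450 gene as a direct neighbour, and 11 of these were above the median. Of the 20 members with no such neighbour, 7 were above it, among them Cyp27a1, Cyp4v3, Cyp20a1, Cyp1b1 and Cyp39a1. These counts are a description, with no test.

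The bases before the start sites are shown for Cyp27a1 and Cyp4v3, which had the highest signals. For contrast they are shown for Cyp3a11 and Cyp2c50, which lay nearest below the median and were high in a single array. RefSeq start sites were given for 50 of the 69 members, and the first one listed was used. Capitals mark CG dinucleotides in the 250 bases before the start, on the strand of the gene and in GRCm38.p6.
Cyp27a1, chr1:74713285-74713534, plus strand: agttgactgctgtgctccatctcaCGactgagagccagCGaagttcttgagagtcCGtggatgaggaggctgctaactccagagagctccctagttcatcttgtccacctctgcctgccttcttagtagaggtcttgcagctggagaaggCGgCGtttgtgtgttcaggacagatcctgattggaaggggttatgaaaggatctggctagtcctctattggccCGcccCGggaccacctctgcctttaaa
Cyp4v3, chr8:45333164-45333413, minus strand: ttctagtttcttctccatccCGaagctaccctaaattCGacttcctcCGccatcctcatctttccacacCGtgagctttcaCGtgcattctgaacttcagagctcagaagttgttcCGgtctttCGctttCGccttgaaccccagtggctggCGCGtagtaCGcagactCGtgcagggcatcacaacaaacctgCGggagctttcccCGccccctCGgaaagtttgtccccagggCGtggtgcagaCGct
Cyp3a11, chr5:145879855-145880104, minus strand: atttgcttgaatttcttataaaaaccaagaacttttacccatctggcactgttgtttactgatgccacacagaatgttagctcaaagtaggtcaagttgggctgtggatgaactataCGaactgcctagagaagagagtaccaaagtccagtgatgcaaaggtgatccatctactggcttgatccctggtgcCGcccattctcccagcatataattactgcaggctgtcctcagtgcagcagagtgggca
Cyp2c50, chr19:40089429-40089678, plus strand: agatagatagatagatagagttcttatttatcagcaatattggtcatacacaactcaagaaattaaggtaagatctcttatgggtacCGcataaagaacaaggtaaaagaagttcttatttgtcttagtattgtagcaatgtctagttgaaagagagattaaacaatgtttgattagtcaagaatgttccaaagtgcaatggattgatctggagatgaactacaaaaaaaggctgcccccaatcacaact

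Cyp27a1 held 7 CG dinucleotides in this stretch and Cyp4v3 held 17, while Cyp3a11 held 2 and Cyp2c50 held 1. Cyp4b1, the next in signal after Cyp4v3, held 3, and its bases are not shown. The median was 3.5 over 14 members above the array median, 2 over 36 members at or below it, and 6 over all 27025 genes of the table. Both sets ranged widely. Among the 14, Cyp46a1 held 23, Cyp20a1 15 and Cyp1b1 12, but Cyp2f2 and Cyp2c38 held 0. Among the 36, Cyp26a1 held 20, Cyp2r1 16, Cyp2s1 15 and Cyp4f39 10. The letters TATAAA, searched on both strands, occurred in 2 of the 14 members, Cyp1a1 and Cyp2c38, and in 16 of the 36, beside 13.0% of all genes. In Cyp3a11 the match began 234 bases before the start. A match is a string of letters here and was not tested as a site.

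Of the 18 P450 genes above the median, 0 passed limma's test between KO and WT after Benjamini-Hochberg adjustment over all 22356 probe sets tested, as did 0% of all 11140 genes. At an unadjusted p under 0.05 there were 4 members, Cyp39a1, Cyp2f2 and Cyp4v3 lower in KO and Cyp4f13 higher, where 8.2% of all genes passed (3.22% higher and 4.98% lower). In 3 of 3 pairs 5 members were lower in KO, namely Cyp27a1, Cyp4v3, Cyp20a1, Cyp2f2 and Cyp39a1, where 19.7% of all genes were. Cyp4f13 alone was higher in 3 of 3 pairs, where 10.9% of all genes were. The KO and WT signals did not overlap for 4 members that were lower in KO and for 1 that was higher, beside 7.87% and 4.43% of all genes. A difference of 1.5-fold or more in each pair was reached by 1 member lower in KO, Cyp39a1, and by 0 higher, beside 0.862% and 0.601% of all genes. The median log2 difference of the 18 was -0.18, against -0.07 for all genes tested. By pair it was -0.25, -0.58 and 0.38 for the 18, and -0.03, -0.24 and 0.06 for all genes tested. With 3 arrays a group the confidence intervals were wide, so a missed threshold does not show that a gene was alike in both genotypes. In whole tissue, fewer cells of a type and less RNA per cell cannot be told apart.

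Signals of markers of other cell types also went one way in several cases, and their part in the P450 differences was not tested. Of 7 white adipocyte markers 6 were above the median, with a median log2 difference of -1.66 and 0 passing the adjusted test. Lep, Sncg, Mest, Npr3 and Nnat were lower in KO in 3 of 3 pairs, the first 4 of them by 1.5-fold or more each time, while Retn was 1.5-fold or more higher. The summed signal of the 7 was 68.2 to 104.9 in KO and 85.2 to 119.9 in WT, and Agt was below the median. Of 7 endothelial markers 4 were lower in KO in 3 of 3 pairs and 0 higher, with sums of 58.6 to 67.9 in KO and 66.0 to 81.0 in WT. Of 7 macrophage markers 3 were higher and 1 was lower, with sums of 105.8 to 119.2 in KO and 85.6 to 119.2 in WT, and Cd163 was at least 1.5-fold higher each time (log2 difference 1.29, limma adjusted p = 0.396). Of 6 fibroblast markers 4 were higher and 0 lower, with sums of 241.9 to 302.7 in KO and 208.7 to 236.9 in WT.

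**Figure D2:**
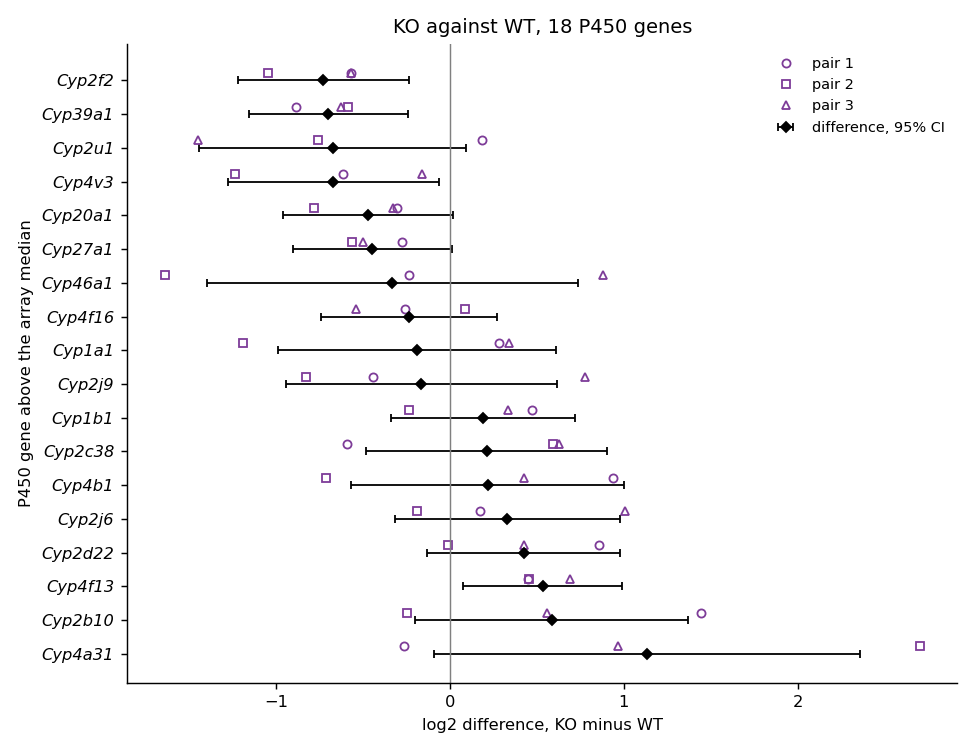
Log2 differences between KO and WT for the 18 P450 genes above the array median. Black diamonds and bars are the fitted differences with 95% confidence intervals, open symbols are the single littermate pairs, and values left of 0 are lower in KO. All 3 pairs lie left of 0 for Cyp2f2, Cyp39a1, Cyp4v3, Cyp20a1 and Cyp27a1 and right of 0 for Cyp4f13.

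Among the enzymes of cholesterol and bile acid hydroxylation, the members above the median were Cyp27a1, Cyp39a1 and Cyp46a1, and the first of these gave the highest signal of the family. Cyp27a1 encodes the mitochondrial sterol hydroxylase that acts on the side chain of cholesterol. It read 21.6, 21.4 and 19.9 in KO and 26.1, 31.7 and 28.2 in WT. All KO signals were below all WT signals, and the KO animals lay close together. KO averaged 21.0 ± 0.927 and WT 28.6 ± 2.80 (SD, n = 3 each), which gave a log2 difference of -0.45 (95% confidence interval, CI, from -0.90 to 0.01, adjusted p = 0.599 in limma). Without pair 2 it was -0.39. The second probe set of Cyp27a1 differed by 0.27, but 5 of its signals were below the floor, so it cannot settle the direction.

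Cyp39a1 encodes an enzyme that hydroxylates an oxysterol on the way to bile acids. It read 0.345, 1.38 and 1.25 in KO and 0.636, 2.08 and 1.92 in WT. Both animals of pair 1 were low, so the groups overlapped, yet KO was lower within each pair, at 0.542, 0.665 and 0.648 of WT. The log2 difference was -0.70 (95% CI from -1.16 to -0.24, adjusted p = 0.440 in limma), and it lay between -0.75 and -0.61 with each pair left out in turn. The signal was near the array median, and Cyp39a1 entered the test through its WT signals, since the KO mean was 0.991 and the WT mean 1.55. It dropped below 1.5-fold in a pair when the floor was set at 0.5 or the arrays were scaled otherwise. Cyp46a1, the cholesterol hydroxylase known from neurons, read 1.11, 0.363 and 1.74 in KO and 1.30, 1.13 and 0.945 in WT, with no common direction. The rest of the group lay below the median, among them Cyp7a1, the rate-limiting enzyme of bile acid synthesis, whose highest array was at 0.969.

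The fatty acid hydroxylases of family 4 did not share a direction. Cyp4v3, the mouse counterpart of the human gene behind Bietti crystalline dystrophy of the eye, read 16.6, 16.0 and 21.1 in KO and 25.4, 37.7 and 23.6 in WT. The groups did not overlap, and the highest signal was that of WT 2, the array with the high actin ratio. KO averaged 17.9 ± 2.81 and WT 28.9 ± 7.67 (SD, n = 3 each), which gave a log2 difference of -0.67 (95% CI from -1.28 to -0.07, adjusted p = 0.551 in limma) that was -0.39 without pair 2. The second probe set of Cyp4v3 read 6.70, 9.26 and 9.54 in KO and 10.6, 15.3 and 11.02 in WT. It did not overlap between the groups either, with a log2 difference of -0.53 (limma adjusted p = 0.561).

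Cyp4f13 belongs to the subfamily that inactivates leukotrienes by hydroxylating their tails. It read 6.79, 7.11 and 5.94 in KO and 4.97, 5.18 and 3.68 in WT, so that all KO signals were above all WT signals. KO was 1.37, 1.37 and 1.62 times WT in pairs 1 to 3. KO averaged 6.61 ± 0.606 and WT 4.61 ± 0.816 (SD, n = 3 each), which gave a log2 difference of 0.53 (95% CI from 0.08 to 0.99, adjusted p = 0.526 in limma). Its relative Cyp4f16 read 2.29, 2.55 and 2.01 in KO and 2.74, 2.40 and 2.93 in WT, with overlapping groups and a log2 difference of -0.24 (limma adjusted p = 0.805). Leaving out pair 3 made it -0.09, and leaving out pair 2 made it -0.40. A dimmer probe set of Cyp4f16 had the opposite sign, at 0.75, so the direction of that gene was not settled by the array.

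Cyp4b1, which oxidises fatty acids and foreign amines and is best known from lung, was among the highest P450 signals and differed between pairs. It read 33.5, 16.7 and 24.5 in KO and 17.5, 27.4 and 18.3 in WT. KO was 1.91 times WT in pair 1, 0.611 times in pair 2 and 1.34 times in pair 3. The log2 difference of 0.22 (95% CI from -0.57 to 1.0, adjusted p = 0.903 in limma) became -0.14 without pair 1 and 0.68 without pair 2. Cyp4a31, of a subfamily known as a target of the fatty acid receptor PPAR alpha, read 1.16, 2.23 and 1.27 in KO and 1.39, 0.342 and 0.651 in WT. It entered the test through its KO signals, since the WT mean was 0.794. Its log2 difference of 1.13 (limma adjusted p = 0.616) was 0.35 without pair 2, where a single WT signal of 0.342 set the size. It was 1.83 without pair 1, the only setting tried in which a member passed the adjusted test (limma adjusted p = 6.72e-03). The second probe set of Cyp4a31 differed by -0.05, but 5 of its signals were below the floor, so it cannot settle the direction. A probe set that names Cyp4a31 together with Cyp4a10 read 0.377 to 0.728 and differed by -0.09. There KO was 0.908, 0.648 and 1.40 times WT in pairs 1 to 3. The higher mean of Cyp4a31 in KO thus rested on 1 probe set.

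**Figure D3:**
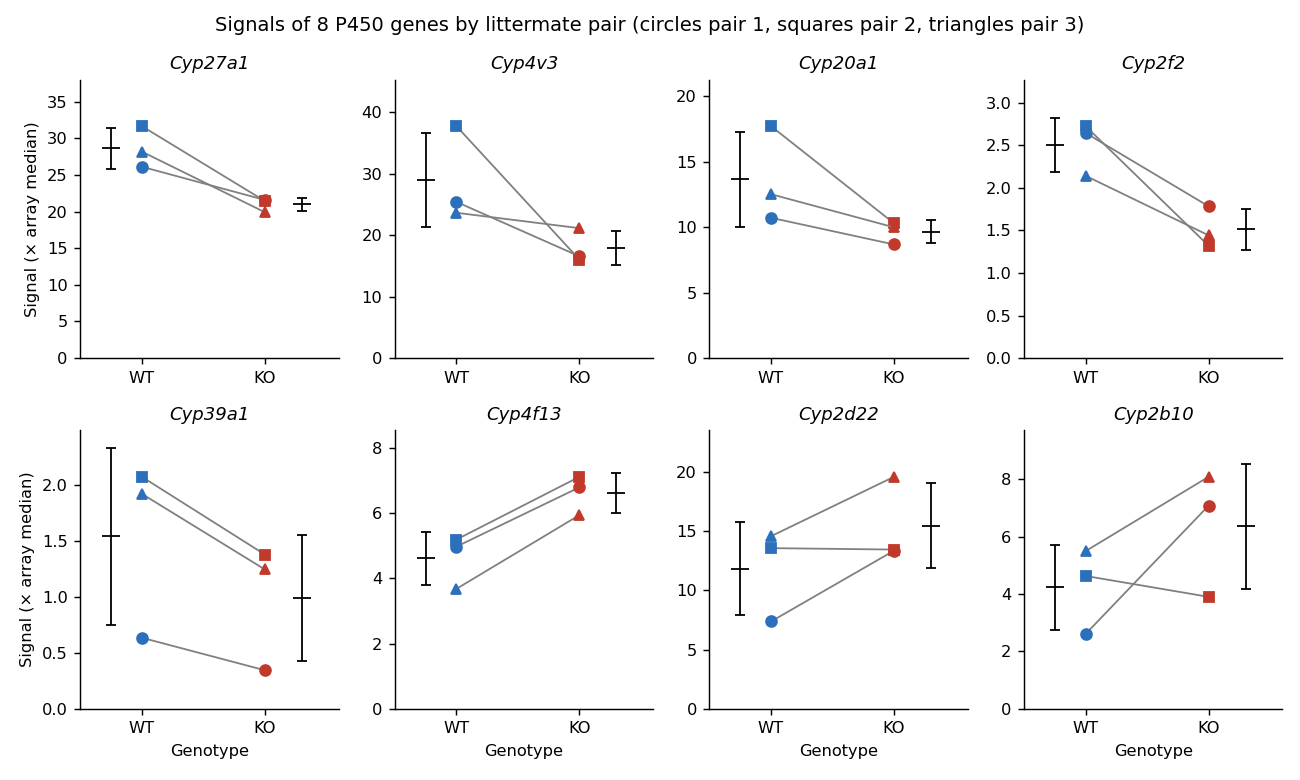
Signals of 8 P450 genes in WT (blue) and KO (red), in multiples of the array median on linear axes that start at 0. Grey lines join littermates, with circles for pair 1, squares for pair 2 and triangles for pair 3, and black bars beside the points give the mean and SD of 3 animals. The KO ends of all 3 lines are lower for Cyp27a1, Cyp4v3, Cyp20a1, Cyp2f2 and Cyp39a1 and higher for Cyp4f13, and the lines do not run one way for Cyp2d22 and Cyp2b10.

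In families 1, 2 and 3, Cyp2f2 was the member that was lower in KO in each pair. Its enzyme activates naphthalene in the club cells of the lung. It read 1.78, 1.32 and 1.44 in KO and 2.64, 2.72 and 2.14 in WT, with no overlap. KO averaged 1.51 ± 0.240 and WT 2.50 ± 0.316 (SD, n = 3 each), which gave a log2 difference of -0.73 (95% CI from -1.22 to -0.24, adjusted p = 0.452 in limma). Without pair 2 it was -0.57 and without either other pair -0.81.

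Cyp2d22 and Cyp2b10 were on average higher in KO. Cyp2d22 is the mouse relative of the main human enzyme for basic drugs. It read 13.4, 13.5 and 19.6 in KO and 7.38, 13.6 and 14.6 in WT, with a log2 difference of 0.42 (95% CI from -0.13 to 0.98, adjusted p = 0.666 in limma) that was 0.21 without pair 1. Its highest signal was that of KO 3, the array with the high hepatocyte markers, and without pair 3 the difference was again 0.42. Its second probe set, nearly as bright, read 14.7, 14.6 and 18.4 in KO and 9.23, 10.1 and 12.5 in WT. There KO was higher in 3 of 3 pairs with no overlap, and the log2 difference was 0.58 (95% CI from 0.14 to 1.03, adjusted p = 0.491 in limma). Of all 22356 probe sets tested, 4.59% had KO signals above WT with no overlap.

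Cyp2b10, the gene that phenobarbital induces through the receptor Nr1i3, read 7.09, 3.90 and 8.09 in KO and 2.61, 4.63 and 5.50 in WT. The groups overlapped, and the pair ratios ran from 0.843 to 2.72. The log2 difference of 0.58 (limma adjusted p = 0.675) was 0.16 without pair 1, and the other probe sets gave 0.32 and 0.03. Nr1i3 itself was below the floor in all 6 arrays, at 0.051 to 0.218.

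Cyp1b1, an enzyme of estradiol and hydrocarbon oxidation outside the liver, read 5.51, 6.76 and 6.79 in KO and 3.98, 7.96 and 5.39 in WT. Its KO signals lay within the range of WT (log2 difference 0.19, limma adjusted p = 0.861, 0.05 without pair 1 and 0.40 without pair 2). The other probe sets of Cyp1b1, below the array median, gave 0.03 and -0.04. Cyp1a1, which like Cyp1b1 is induced through the aryl hydrocarbon receptor, read 3.67, 1.77 and 2.03 in KO and 3.02, 4.04 and 1.60 in WT. Its groups overlapped too, and the log2 difference of -0.19 (limma adjusted p = 0.920) was 0.31 without pair 2. Cyp2u1, a hydroxylase of long-chain fatty acids, read 2.11, 1.62 and 1.11 in KO and 1.86, 2.74 and 3.04 in WT. KO was lower in pairs 2 and 3 only, at a log2 difference of -0.68 (limma adjusted p = 0.637, -1.11 without pair 1 and -0.29 without pair 3), while its second probe set was lower in each pair at -0.43 (limma adjusted p = 0.612). Cyp2c38, of the subfamily that also makes arachidonic acid epoxides, had a log2 difference of 0.21 (limma adjusted p = 0.890). Leaving out pairs 1, 2 and 3 in turn made it 0.61, 0.02 and 0.0006.

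The epoxygenases Cyp2j6 and Cyp2j9, which turn arachidonic acid into vasoactive epoxides, had no common direction over the pairs. Cyp2j6 read 7.09, 3.62 and 4.08 in KO and 6.28, 4.12 and 2.04 in WT, and the log2 difference of 0.33 (limma adjusted p = 0.779) rested on pair 3, without which it was -0.007. Its second probe set read 3.40 to 3.90 over the 6 arrays and differed by 0.02. Cyp2j9 had a log2 difference of -0.17 (limma adjusted p = 0.928).

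Cyp20a1, an orphan P450 with no settled substrate, was lower in KO in each pair. It read 8.68, 10.3 and 9.99 in KO and 10.7, 17.7 and 12.5 in WT. The groups did not overlap, although KO 2 at 10.3 lay close to WT 1 at 10.7, and WT 2 was the highest array. The log2 difference was -0.47 (95% CI from -0.96 to 0.02, adjusted p = 0.602 in limma) and -0.32 without pair 2. A second probe set gave -0.39 with overlapping groups, and the remaining one, below the array median, gave 0.04.

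WT 2 was the highest of the 6 arrays for each of the 5 members that were lower in KO in 3 of 3 pairs. The share of all genes highest in WT 2 is not given here, and WT 2 was high beyond these 5. The 18 members above the median summed to 168.7 in WT 2 and to 113.7 to 134.7 in the others. In the lists described below, WT 2 was the highest array for 7 of 9 redox partners, 5 of 12 haem genes and 8 of 23 regulators. The actin ratio of WT 2 was the highest as well, and the part of the RNA quality in the differences of the 5 members was not tested. Without pair 2 the 5 log2 differences lay between -0.75 and -0.32. Their sign could not change, since the 5 were chosen as lower in KO in each pair.

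The 51 members at or below the median were described by counts. Of these, 5, namely Cyp4f14, Cyp2j11, Cyp2j5, Cyp2d26 and Cyp3a44, were below the floor of 0.25 in all arrays, and 46 reached it in at least 1 array. A signal above 1 in some array was seen for 12. Of the steroid hormone genes the highest mean was 0.781, for Cyp21a1, and the adrenal markers Hsd3b1 and Nr5a1 were at most 0.103 and 0.422, while Star and Mc2r were at most 2.88 and 3.65. Of the retinoic acid genes the highest mean was 0.770, for Cyp26b1. Of the vitamin D genes the highest mean was 0.445, for Cyp24a1.

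A difference of 1.5-fold or more in each pair occurred in 2 of the 51, 1 higher and 1 lower in KO, each with 4 of 6 signals above the floor. Of the 7053 genes at or below the median, 1.28% were that much higher and 1.21% that much lower. Cyp8b1, which directs bile acid synthesis towards cholic acid, read 0.585, 0.745 and 0.676 in KO and 0.246, 0.125 and 0.346 in WT. Cyp2r1, which performs the first hydroxylation of vitamin D, read 0.178, 0.271 and 0.208 in KO and 0.572, 0.463 and 0.427 in WT. Neither group pair overlapped, but these signals were well under the array median and were not among those tested.

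KO 3 was the highest array for 17 of the 51 dim members, where it was the highest for 15.2% of 7053 genes at or below the median. Of the 46 dim members that reached the floor, 8 were at least 2-fold higher in KO 3 than in any other array. They are named because of that, with no test, and the matching share of all genes is not given here. Cyp3a11, a main drug-metabolising P450 of mouse liver, read 4.22 in KO 3 and 0.043, 0.576, 0.324, 0.452 and 0.314 in KO 1, KO 2 and WT 1 to 3. Cyp2c50 read 2.997 in KO 3 and at most 0.951 elsewhere, and Cyp2c29 read 1.89 and at most 0.830. Cyp3a25 read 0.883 in KO 3 and at most 0.019 elsewhere. The others were Cyp2c37, Cyp2c23, Cyp3a13 and Cyp4a14, so that 4 of the 8 belong to Cyp2c and 3 to Cyp3a, the subfamilies best known from liver. Not among the 8 were the dim members Cyp2c39, Cyp2c54, Cyp2c55, Cyp2c65, Cyp2c68, Cyp2c70, Cyp3a16 and Cyp3a44 of the same subfamilies. Of these, Cyp2c70 read 0.425 in KO 3 and 1.16 in WT 2. The summed signal of the 8 was 13.2 in KO 3 and 1.34 to 2.38 in the other arrays.

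The hepatocyte markers were high in the same array. Of 13 measured, 11 had their highest signal in KO 3 and 10 were at least 2-fold above any other array, the exceptions among the 13 being Apoh, Tat and Cps1. Albumin (Alb) read 28.5 in KO 3 and 0.640 to 1.18 elsewhere, and transthyretin (Ttr) read 14.7 and at most 0.067. Serpina1b read 3.68 and at most 0.110. The part of liver RNA in the P450 signals of KO 3 was not tested. Leaving KO 3 out, 17 members in place of 18 exceeded the array median on average, and 7 in place of 12 dim members had a signal above 1. The differences of Cyp27a1, Cyp4v3, Cyp2f2 and Cyp39a1 were -0.42, -0.93, -0.81 and -0.74 without pair 3, and that of Cyp4f13 was 0.45.

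**Figure D4:**
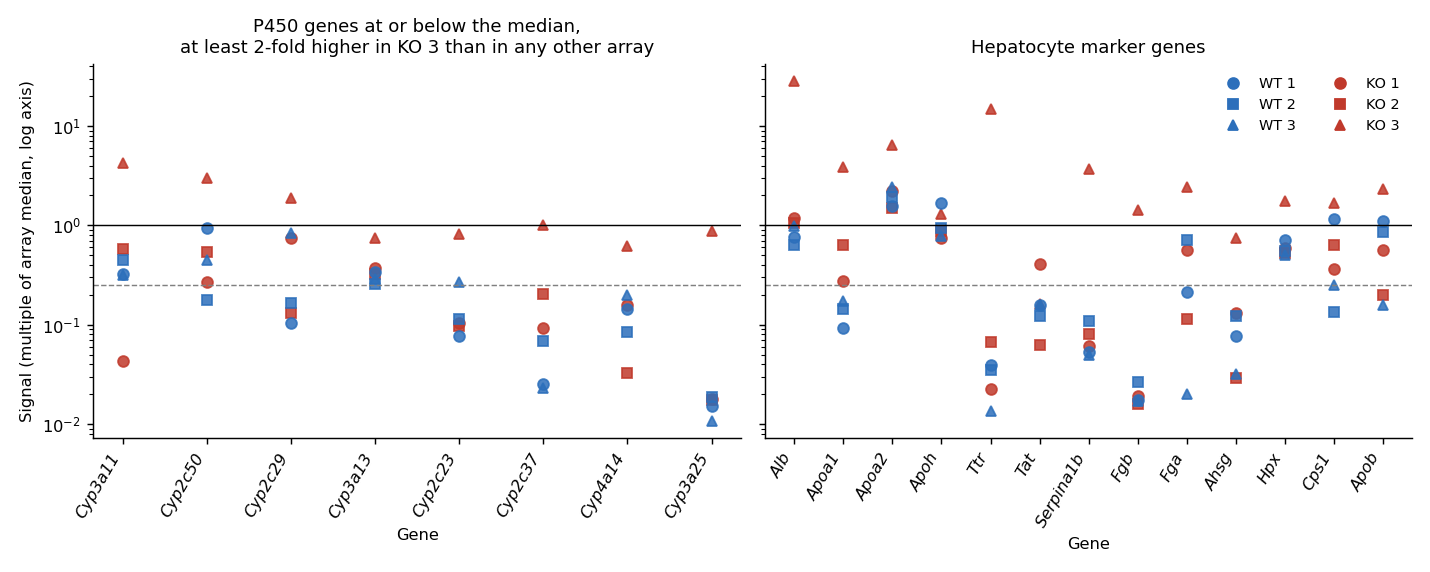
Signals in each of the 6 arrays, on a logarithmic axis in multiples of the array median. The left panel holds the 8 dim P450 genes that reached the floor and were at least 2-fold higher in KO 3 than in any other array. The right panel holds 13 hepatocyte marker genes. Red is KO, blue is WT, and shapes are pairs as named in the legend. The red triangle of KO 3 is the top point for all 8 P450 genes on the left, which were chosen for that, and for 11 of 13 markers on the right.

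The partner and regulator genes of the P450 enzymes were mostly above the median, and 0 passed the adjusted test. Their counts stand beside the shares of all genes given before, 61.2% above the median and, of genes tested, 10.9% higher and 19.7% lower in KO in 3 of 3 pairs. Of 12 genes listed as redox partners, 9 had a probe set and 8 were above the median, while Por, Fdx2 and Fdxr were not analysed here. Limma passed 0 of the 8 after adjustment and 1 at an unadjusted p under 0.05, and in 3 of 3 pairs 1 was higher and 2 were lower in KO. Cyb5b, the cytochrome b5 of the outer mitochondrial membrane, read 42.2, 66.4 and 65.5 in KO and 75.0, 117.1 and 69.1 in WT. The groups did not overlap, and the log2 difference was -0.57 (limma adjusted p = 0.571, -0.45 without pair 2). Of 13 genes of haem synthesis and breakdown, 12 were above the median, with 0 passing either threshold, 1 higher and 1 lower in KO in 3 of 3 pairs. Of 26 regulators of P450 genes, 23 had a probe set and 16 were above the median, with 0 passing either threshold, 3 higher and 3 lower in KO in 3 of 3 pairs.

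P450 genes outside the symbol rule gave other values. Cyp2e1, the ethanol-oxidising P450, read 129.4, 108.3 and 148.7 in KO and 29.3, 18.3 and 26.7 in WT, a log2 difference of 2.40 (limma adjusted p = 0.117) that no member of the family came near. Its adjusted p depended on the setting and ran from 2.58e-10 to 0.788, with 5 of 14 alternatives under 0.05. Cyp51, the lanosterol demethylase of cholesterol synthesis, differed by -0.46 (limma adjusted p = 0.637) and was lower in KO in 3 of 3 pairs (-0.29 without pair 2). Prostacyclin synthase (Ptgis) read 0.193, 1.54 and 0.536 in KO and 5.26, 4.08 and 2.08 in WT, with no overlap (log2 difference -2.59, limma adjusted p = 0.399, 1 signal below the floor). It entered the test through its WT signals, with a KO mean of 0.756 and a WT mean of 3.81. Its difference was -1.68 without pair 1, and its adjusted p ran from 0.00496 to 0.788, with 3 of 13 alternatives under 0.05. Thromboxane synthase (Tbxas1) differed by -0.34 (limma adjusted p = 0.835). A further 4 probe sets name several P450 genes at once and were not counted. Close relatives in the Cyp2b, Cyp2c, Cyp2d, Cyp3a, Cyp4a and Cyp4f subfamilies can share probe sequence, so that a signal under 1 name may hold that of a relative.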

How the data were processed

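Total RNA from BAT of 3 KO and 3 WT mice was run by the authors on whole-genome Affymetrix mouse arrays, 1 per animal. The values the authors deposited are linear signal intensities, 1 for each probe set, and the labels name GCOS as the software. Its version and algorithm are not given in the sources. The median normalization of the study was not part of the deposited values.

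After 64 control probe sets were set aside, each of 45037 intensities was divided by its array's median, raised to a floor of 0.25 and put on the log2 scale. The 22356 probe sets whose scaled signals averaged above 1 were tested with limma 3.58.1 in R 4.3.3, in a model of genotype plus littermate pair, and p-values were adjusted over all of them by Benjamini-Hochberg, with 0.05 as the threshold. Log2 differences are KO minus WT and understate changes near the floor. Shares of all genes used 11140 genes by their brightest probe set. Symbols came from a platform annotation that gave 34945 probe sets 1 symbol, 932 several and 9160 none, and 34741 matched the GRCm38.p6 gene table by identifier.

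The littermate numbers of the labels pair the animals. Around the group means, deviations correlated by 0.446, 0.0847 and 0.160 within pairs and by -0.359 to 0.281 between KO and WT arrays of different pairs. The members, the lists and the rule for named genes were chosen with earlier results of these data known. Named were all members above the median, by role, the 3 nearest below it, dim members at 1.5-fold in each pair with at least 3 signals above the floor, genes of the redox partner, haem and regulator lists with the same difference or an unadjusted p under 0.05, and further probe sets that disagreed. Cell type markers, members high in KO 3 and the further probe sets of Cyp4v3, Cyp2d22, Cyp2u1 and Cyp2j6 were added after their values were seen. The fit was tested on simulated data. The number of arrays limits the precision.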

Additional observations from a re-analysis of the deposited data

How the results depend on the processing

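The limits are the 3 animals a group, signals near background for most members, and arrays that stood apart. The count of members passing the adjusted test was 0 in the fit as reported and under every other scaling, floor, filter, choice of probe set and variance prior tried, and 0 to 1 with each pair left out, where Cyp4a31 passed without pair 1. With no replicate block, that is without the littermate pairing, it was 0 as well, and 4 members had an unadjusted p under 0.05, as with the block. Over all settings that unadjusted count lay between 3 and 9, out of differing numbers of members. It was 3 of 16 under another choice of probe set and 9 of 18 with a robust prior that follows intensity. It was 6 of 8 with a filter above 5 and 8 of 69 with no filter. The count at 1.5-fold in each pair was 1. It was 0 without scaling, with quantile normalization, with a floor at 0.5, with a pseudocount instead of a floor and with a filter above 2. It was 3 with no filter, and 1 to 4 with each pair left out, where the rule covered fewer pairs. Shares of all genes are not given for the alternative settings of either count. The median log2 difference of the members was 0.0060 when probe sets of a gene were averaged, and -0.19 to 0.24 with each pair left out, the highest without pair 2. Members above the median numbered 16 under another choice of probe set and 17 to 21 with each pair left out. By stricter rules, 15 were above it in all 6 arrays and 13 had a mean above 2. The count was 17 and 20 without the KO array of pair 3 and the WT array of pair 2, settings chosen after seeing the data.

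Of the differences of single members over all settings, 228 kept their direction and their side of the threshold, 6 turned and 1 came to pass it. Many could not turn. The log2 difference of a member stays the same without the block, with the robust prior, at the lower floor and under higher filters. With each pair left out, Cyp1a1 ran from -0.45 to 0.31, Cyp2j9 from -0.63 to 0.17 and Cyp46a1 from -0.94 to 0.32, each turning without pair 2. Cyp4b1 ran from -0.14, without pair 1, to 0.68, and Cyp2j6 from -0.0072, without pair 3, to 0.59. Cyp4f16 was at 0.26 when its probe sets were averaged. Outside the family, Tbxas1 ran from -0.69 to 0.17, the latter without pair 1. Cyp2e1 came to pass the adjusted test with a pseudocount (0.0337), without pair 1 (3.98e-05), with a robust prior that follows intensity (4.47e-10) and with filters above 2 (0.00109) and 5 (2.58e-10). Ptgis did so without pair 1 (0.00496), with that prior (0.0379) and with the filter above 2 (0.0369). For these genes the filters were chosen after seeing the data. The causes were not tested. Over the tested probe sets the median log2 difference was -0.05 as reported, 0.009 without scaling and 0.001 after quantile normalization.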
